A study of Homo sapiens with 12 samples.

Results

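The genes described here are 10 markers of the intestinal epithelium, VIL1, ANPEP, FABP1, LGALS4, CDH17, CEACAM5, CEACAM6, GUCY2C, REG4 and OLFM4, taken by name as markers of intestinal metaplasia and enterocytes from 34595 genes with a value. Expression was measured on 12 BeadChip arrays (Illumina HT-12 v3), 2 to each of 6 sorted populations. KATO-III, SNU-216 and SNU-601 are established gastric cancer cell lines, grown in the same medium, and each was stained with the AC133 antibody against CD133, the membrane glycoprotein encoded by PROM1, and sorted into its brightest cells (CD133+) and its dimmest cells (CD133-). Cells between both gates were in neither fraction, each line stands for 1 tumor, and the design text of the series writes SNU201 for the line that the array labels call SNU-216. Nothing says that the 2 arrays of a population came from separate sorts, so the p-values measure only the spread between arrays, which may be technical. RNA was taken from whole fractions, so that fewer expressing cells and less RNA per cell cannot be told apart.

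Intestinal metaplasia is the replacement of gastric mucosa by epithelium of an intestinal type, and many gastric cancers keep or gain its markers. Absorptive enterocytes carry an apical brush border of microvilli bundled by villin and studded with peptidases such as aminopeptidase N, and their membranes and junctions hold galectin-4 and cadherin-17. The carcinoembryonic antigen family (CEACAM) encodes adhesion glycoproteins of the epithelial surface, and the homeobox factor CDX2 is a main activator of the intestinal program.

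Promoter sequences are shown for 4 members on which the results below turn: REG4, whose fractions were far apart in KATO-III, LGALS4, which separated SNU-216 from the other lines, and the neighboring genes CEACAM5 and CEACAM6, whose fractions differed in different lines. Each sequence is the 250 bases before the start of the gene on its own strand, 5′ to 3′, from RefSeq annotation of GRCh38.p14. Capitals mark matches, searched on both strands. The motif of the CDX family was searched as TTTATNG, and the motif of the GATA factors, a zinc finger family active in gut epithelium, was searched as AGATAA. The HNF4 motif was searched as CAAAGTCCA, the HNF1 motif as its full palindrome and the TATA box as TATAAA. REG4 lies at chr1:119811461-119811710 on the minus strand, LGALS4 at chr19:38812946-38813195 on the minus strand, CEACAM5 at chr19:41708376-41708625 on the plus strand and CEACAM6 at chr19:41755280-41755529 on the plus strand.
REG4: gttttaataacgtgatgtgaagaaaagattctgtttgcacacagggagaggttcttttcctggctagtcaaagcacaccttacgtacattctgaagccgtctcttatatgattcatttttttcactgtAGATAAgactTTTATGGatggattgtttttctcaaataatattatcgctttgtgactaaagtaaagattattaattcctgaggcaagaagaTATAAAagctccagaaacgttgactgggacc
LGALS4: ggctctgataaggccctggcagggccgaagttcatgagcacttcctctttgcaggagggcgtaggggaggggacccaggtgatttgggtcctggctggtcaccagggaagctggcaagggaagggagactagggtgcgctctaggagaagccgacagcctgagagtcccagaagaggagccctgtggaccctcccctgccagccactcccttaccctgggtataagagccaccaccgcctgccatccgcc
CEACAM5: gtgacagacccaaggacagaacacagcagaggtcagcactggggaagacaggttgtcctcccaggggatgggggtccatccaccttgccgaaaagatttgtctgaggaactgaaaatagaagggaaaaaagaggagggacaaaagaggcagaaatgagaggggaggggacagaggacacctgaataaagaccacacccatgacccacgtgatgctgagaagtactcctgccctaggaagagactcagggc
CEACAM6: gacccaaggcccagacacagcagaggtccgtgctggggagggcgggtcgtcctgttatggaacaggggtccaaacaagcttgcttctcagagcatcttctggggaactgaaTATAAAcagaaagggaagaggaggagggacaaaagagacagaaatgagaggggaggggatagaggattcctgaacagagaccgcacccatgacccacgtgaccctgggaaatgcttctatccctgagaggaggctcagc

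The REG4 window held TTTATNG 106 bases, AGATAA 117 bases and TATAAA 26 bases from the start, and the CEACAM6 window held TATAAA at 134 bases. Neither the LGALS4 nor the CEACAM5 window held any of these letters. Among 35116 promoters of the same length, 8.93% held TTTATNG, 9.17% AGATAA, 0.0057% the HNF1 motif, 0.325% CAAAGTCCA and 10.7% TATAAA. Of 8 promoters listed for 7 of the members, 2 held TTTATNG (REG4 and FABP1), 1 held AGATAA, 3 held TATAAA and 0 held either HNF motif. CEACAM5 and CEACAM6 are adjacent protein-coding genes between CEACAM7 and CEACAM3, and their windows were identical at 190 of 242 aligned positions (78.5%), against 58.6% for the windows of LGALS4 and REG4. A match is a run of letters and not a measured binding site.

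Values are the quantile-normalized intensities as deposited, of which 32.1% are at or below 0. A floor of 32.7, which mirrors the 1st percentile of the table, replaced lower intensities before log2 was taken, and a fold change against a population at the floor is a lower bound. Of the 10 members, 8 exceeded the floor on 2 or more arrays and were tested, with p-values adjusted over all 20147 tested genes. FABP1, the liver-type fatty acid-binding protein of enterocytes, reached 35.5 on 1 KATO-III CD133+ array and lay between -26.1 and 18.0 on the other 11. OLFM4, a secreted glycoprotein of crypt stem cells, lay between -34.0 and -0.585 on all 12. Signal for either gene was not detectable on these arrays.

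The sort and the epithelial nature of the cells were checked first. PROM1 was higher in CD133+ cells by 1.10 in KATO-III, 2.02 in SNU-216 and 1.86 in SNU-601 on the log2 scale (limma, adjusted p = 2.38e-06, 3.02e-07 and 5.65e-06). All 8 epithelial markers (EPCAM, cadherin-1, keratins and claudins among them) lay above the floor on all 12 arrays, and all 6 endothelial markers were at the floor on all of them. Of 10 leukocyte markers 4 and of 8 fibroblast markers 3 passed the floor on any array, while PTPRC, CD3E, CD3D, COL3A1, DCN and PDGFRB were at the floor on all. Replicate arrays correlated at 0.993 to 0.995, and each array had 16320 to 16474 genes above the floor.

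**Figure D1:**
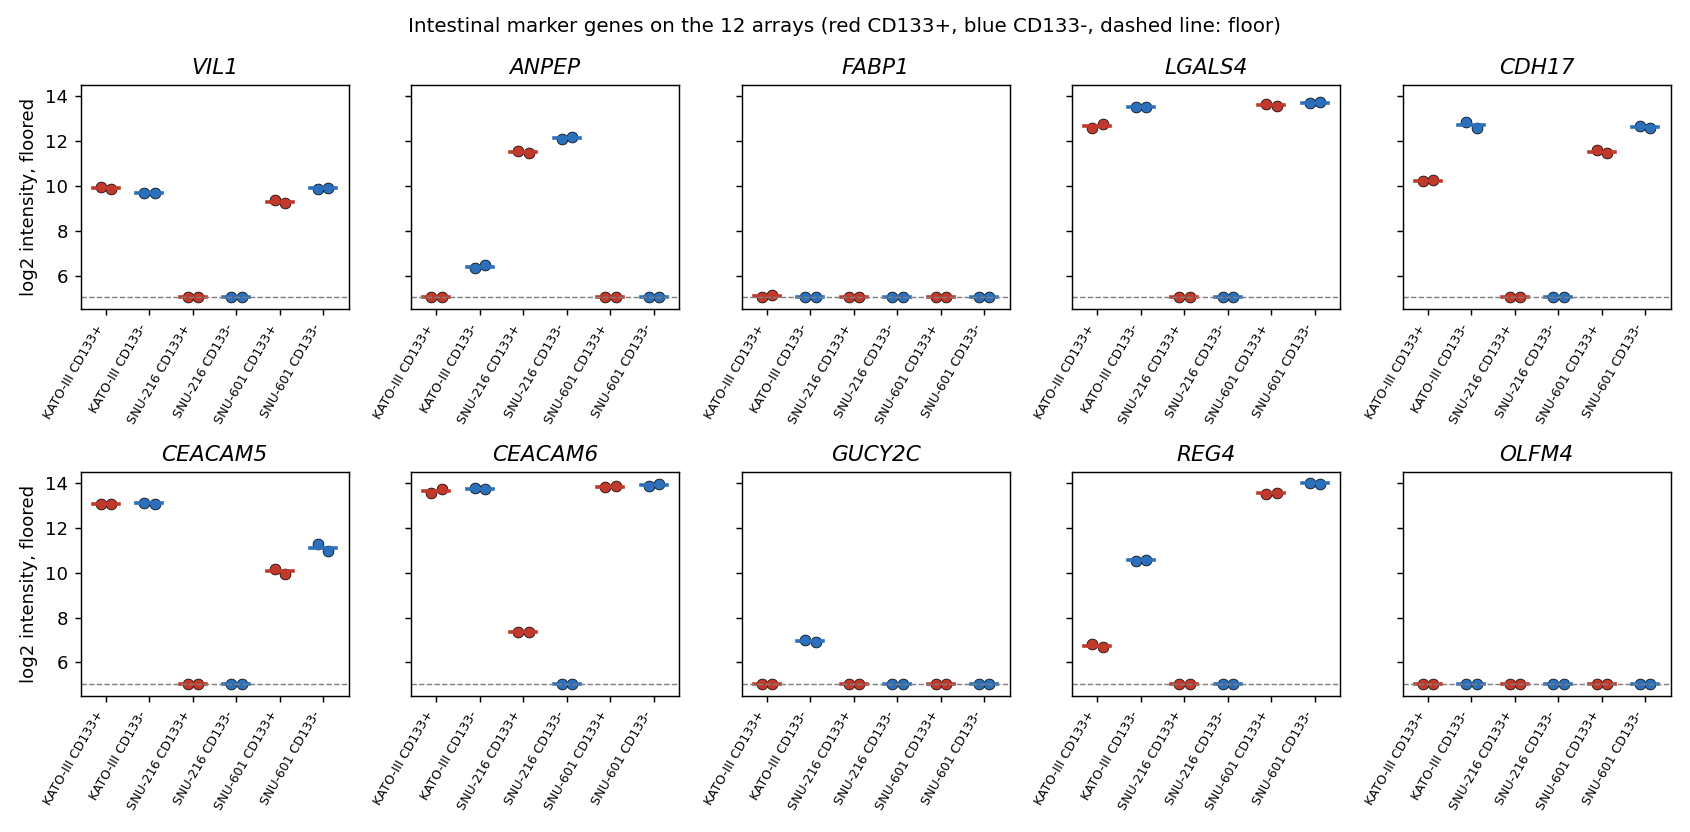
Log2 intensity of the 10 intestinal markers on the 12 arrays, 2 points per sorted population with their mean as a bar; red is CD133+, blue is CD133-, and the dashed line is the floor of 32.7. SNU-216 sits at the floor for most members but is the highest line for ANPEP, and OLFM4 is at the floor throughout.

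For most of these genes the level differed between SNU-216 and the other lines. VIL1, LGALS4, CDH17, CEACAM5, CEACAM6 and REG4 were all measured in KATO-III and SNU-601 on all 8 arrays, and SNU-216 was lower than both lines for each of them. ANPEP ran the other way, with 2819 to 4652 intensity units in SNU-216 and at most 88.4 elsewhere. Between KATO-III and SNU-216, 8 of the 8 tested members differed (7 higher in KATO-III), where 62% of all tested genes did (30.3% higher and 31.7% lower in KATO-III). Between SNU-216 and SNU-601, 7 differed (1 higher in SNU-216) against a background of 56.5% (29.4% higher and 27.1% lower), and between KATO-III and SNU-601, 8 differed (4 in each direction) against 58.6% (28.7% higher and 29.9% lower in KATO-III). With the 6 populations of each member ordered by level, 21 pairs of neighbors differed, 9 were not called and 10 were both at the floor. Neighbors were picked by these same levels, and some are both fractions of 1 line, so a fixed pair is not a like background. Of all tested genes, 46.9% to 60% differed in a fixed pair of populations of different lines. The shares between fractions were 39.3% in KATO-III, 28.6% in SNU-216 and 16.4% in SNU-601. Without GUCY2C, 7 of 7 members differed between KATO-III and SNU-216 (6 higher in KATO-III) and 7 of 7 between KATO-III and SNU-601 (3 higher, 4 lower). These comparisons average both fractions. Between KATO-III and SNU-601, VIL1 and CDH17 changed sign in CD133- arrays alone, and ANPEP was at the floor in the CD133+ arrays of both lines. With the arrays of a population averaged first, 2 members differed between these lines. A pattern of all 4 SNU-216 arrays at the floor and all 8 others above it was seen for VIL1, CDH17, CEACAM5 and REG4, and for 450 of the 20147 tested genes (2.23%).

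Within the lines, most called members were lower in CD133+ cells. In KATO-III, 6 of 8 tested members were called (1 higher, 5 lower) against 39.3% of all genes (18.7% higher, 20.6% lower). GUCY2C entered the test only through the population where it was high, and without it 5 of 7 were called (1 higher, 4 lower). In SNU-601, 4 were called, all lower, against 16.4% (7.78% lower, 8.59% higher), and in SNU-216, 2 were called (1 higher, 1 lower) against 28.6% (14.6% higher, 14% lower), with 5 members at the floor in both fractions. The median difference over the members above the floor was -1.11 in KATO-III (8 members), -0.52 in SNU-601 (6) and 0.01 in SNU-216 (3) on the log2 scale, beside -0.02, -0.01 and -0.01 for all genes above the floor in each line. Without GUCY2C the KATO-III median was -0.85. Over the 3 lines together, with cell line as a block, 0 members passed limma at an adjusted p of 0.05 against 4.73% of all genes (2.62% higher, 2.11% lower), while 6 had an unadjusted p under 0.05. No member passed the signal-to-noise threshold of 1 or -1 that 0.96% of all genes passed. A line with both fractions at the floor enters the fit over lines with a change of 0, as SNU-216 does for 5 members. The signal-to-noise ratio divides by the spread over all 3 lines, so that differences in level between lines lower it. Neither count can therefore decide whether the lines that express a member share a difference.

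Among the brush border genes, VIL1 encodes villin, the actin-bundling protein of the microvillus core. Its intensities were 992 and 928 in KATO-III CD133+ cells, 816 and 818 in CD133- cells, 660 and 607 in SNU-601 CD133+ cells and 940 and 960 in SNU-601 CD133- cells. All 4 SNU-216 arrays were below 0, from -27.5 to -13.6. The fractions did not overlap in either expressing line, but the direction was opposite. In SNU-601, VIL1 was 1.50-fold lower in CD133+ cells (log2 -0.59, SE 0.0779, limma adjusted p = 0.00165). In KATO-III it was 1.17-fold higher (0.23, adjusted p = 0.0431), a call that was lost without any one of the KATO-III arrays (adjusted p from 0.0652 to 0.213) and without either SNU-601 CD133- array. The changes in the 2 lines differed by 0.82 (SE 0.110, adjusted p = 0.000685). Averaged over both fractions, KATO-III was at least 27.1-fold and SNU-601 at least 23.7-fold above SNU-216. KATO-III was 0.19 above SNU-601, but among CD133- cells SNU-601 was 0.22 above KATO-III (adjusted p = 0.0461, and 0.0598 when fitted on CD133- arrays alone). In the order of levels, KATO-III CD133+ and SNU-601 CD133- cells led, and the difference between them was within the spread of the arrays (adjusted p = 0.937).

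ANPEP encodes aminopeptidase N (CD13), a peptidase of the brush border that is also known from myeloid cells and fibroblasts. It read 3015 and 2819 in SNU-216 CD133+ cells and 4360 and 4652 in SNU-216 CD133- cells. KATO-III CD133- cells gave 80.4 and 88.4, KATO-III CD133+ cells 16.1 and -4.43, and the 4 SNU-601 arrays lay between -27.2 and 16.5. ANPEP was thus lower in CD133+ cells in both lines where it was measured. The difference was 1.54-fold in SNU-216 (log2 -0.63, SE 0.0958, adjusted p = 0.00133) and at least 2.58-fold in KATO-III (adjusted p = 1.08e-05), where the CD133+ arrays were at the floor. With a floor of 100 all KATO-III arrays are at the floor and that difference is 0. SNU-216 was at least 111-fold above SNU-601, and KATO-III minus SNU-216 was -6.11 on the log2 scale (adjusted p = 1.72e-12 and 3.25e-12).

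LGALS4 encodes galectin-4, a sugar-binding protein that organizes lipid rafts of the apical membrane. It gave 6085 and 6902 in KATO-III CD133+ cells and 11548 and 11845 in KATO-III CD133- cells. SNU-601 gave 13040 and 11927 in CD133+ cells and 13141 and 13797 in CD133- cells, and SNU-216 lay between 2.64 and 33.2, with 1 array just above the floor. The KATO-III fractions were well apart, with CD133+ cells 1.80-fold lower (log2 -0.85, SE 0.0669, adjusted p = 1.97e-05). In SNU-601 the difference was -0.11 (SE 0.0669, adjusted p = 0.337), and the change in KATO-III minus that in SNU-601 was -0.74 (adjusted p = 0.000516). The log2 level of KATO-III was 8.05 above that of SNU-216, and SNU-216 minus SNU-601 was -8.63. Among the 3 highest populations, both SNU-601 fractions and KATO-III CD133- cells, neighbors in the order were not called apart (adjusted p = 0.337 and 0.318).

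CDH17 encodes cadherin-17 (LI-cadherin), an adhesion molecule of the intestinal lateral membrane and a target of CDX2. It read 1181 and 1214 in KATO-III CD133+ cells against 7400 and 6082 in CD133- cells. SNU-601 read 3068 and 2819 in CD133+ cells against 6485 and 6128 in CD133- cells, and SNU-216 lay between -19.1 and 12.2. CD133+ cells were lower in both expressing lines without overlap. The difference was 5.60-fold in KATO-III (log2 -2.49, SE 0.0883, adjusted p = 3.84e-07), the 46th lowest of 20147, and 2.14-fold in SNU-601 (-1.10, adjusted p = 0.000225), the 75th lowest. The KATO-III change minus the SNU-601 change was -1.39 (SE 0.125, adjusted p = 8.16e-05). The CD133- fractions of both lines were within the spread of the arrays (0.09, adjusted p = 0.475), while SNU-601 CD133+ cells were 1.30 above KATO-III CD133+ cells (adjusted p = 1.79e-06). Over all lines CDH17 came nearest to the threshold (-1.20, SE 0.309, adjusted p = 0.0512). In KATO-III and SNU-601 alone, a choice made after the values were seen, it was -1.79 with an adjusted p of 0.0105, where 7.84% of genes passed.

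**Figure D2:**
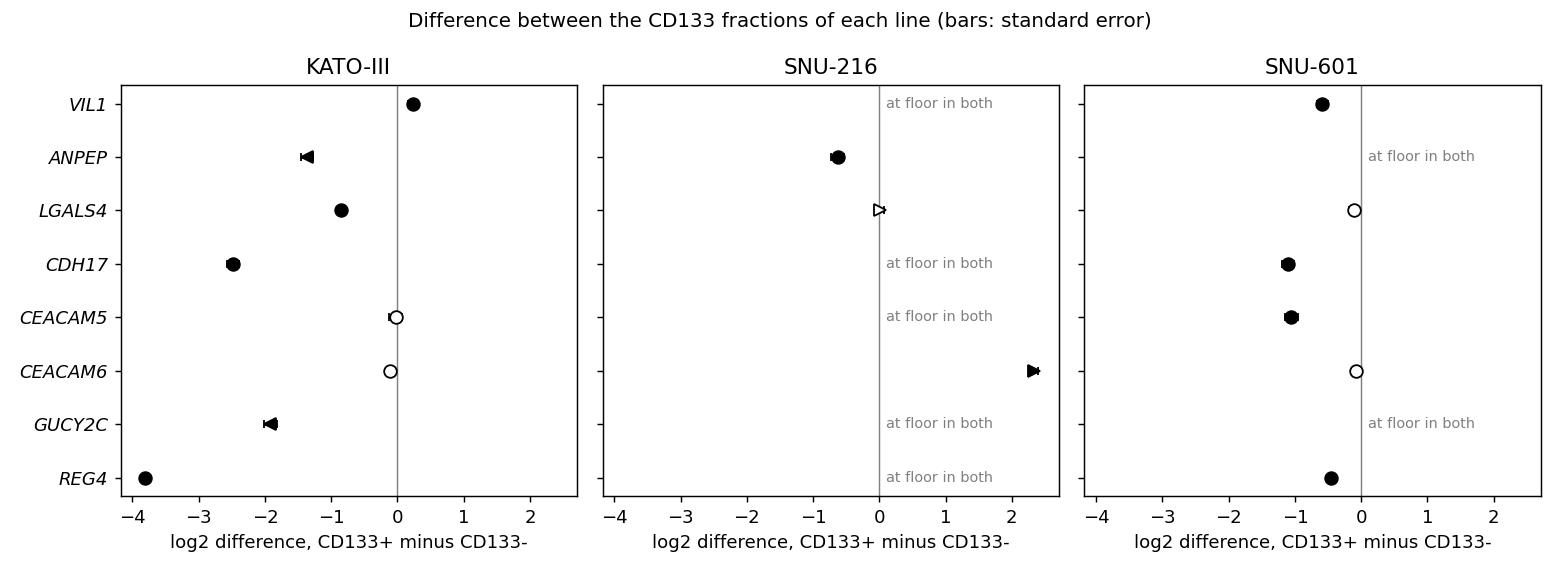
Log2 difference, CD133+ minus CD133-, of the 8 tested members in each line, with the standard error of the limma fit as a bar. Filled symbols passed an adjusted p of 0.05, triangles are lower bounds with 1 fraction at the floor, and REG4 in KATO-III (-3.81) and CEACAM6 in SNU-216 (2.33) lie farthest from 0.

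CEACAM5 encodes carcinoembryonic antigen, the glycoprotein measured as a serum tumor marker. KATO-III gave 8478 and 8648 in CD133+ cells and 8840 and 8628 in CD133- cells, so that the fractions overlapped. SNU-601 gave 1147 and 997 in CD133+ cells against 2469 and 1991 in CD133- cells, and SNU-216 lay between -22.8 and 4.74. CD133+ cells of SNU-601 were 2.07-fold lower (log2 -1.05, SE 0.0991, adjusted p = 0.000413), the 96th lowest change of 20147 in that line. In KATO-III the difference was -0.03 (SE 0.0991, adjusted p = 0.920), and 0.01 with each array centered on its median. The changes in these lines differed by 1.02 (SE 0.140, adjusted p = 0.000743). Across lines, KATO-III was 5.62-fold above SNU-601 (adjusted p = 3.18e-09) and at least 265-fold above SNU-216.

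CEACAM6, a close relative anchored to the membrane through a lipid, was high in the same lines but followed CD133 differently. Its intensities were 11927 and 13525 in KATO-III CD133+ cells and 14083 and 13486 in CD133- cells, and 14332 and 14800 against 15085 and 15835 in SNU-601. In SNU-216 it read 164 and 165 in CD133+ cells and 9.64 and 8.45 in CD133- cells. The SNU-216 fractions were apart by at least 5.04-fold (log2 2.33, SE 0.0601, adjusted p = 2.29e-07), the 37th highest change of 20147 in that line. In KATO-III and SNU-601 the differences were -0.12 and -0.09 (SE 0.0601 each, adjusted p = 0.165 and 0.419). Without the second KATO-III CD133+ array the former was -0.21 and passed (adjusted p = 0.0203). The KATO-III change minus the SNU-216 change was -2.45, and the SNU-216 change minus the SNU-601 change was 2.42 (adjusted p = 8.87e-07 and 3.16e-06). Among the 4 populations of KATO-III and SNU-601, neighbors in the order of levels were not called apart. Averaged over both fractions, KATO-III was 0.18 below SNU-601 (limma adjusted p = 0.00484), a call lost in CD133+ arrays alone (0.0565). Several genes measured on every array of the other lines were at the floor on the SNU-216 CD133+ arrays that gave CEACAM6 its signal. Among them were CEACAM5, REG4, VIL1, CDH17, TFF1, TFF2, TFF3, LYZ, TM4SF5, ANXA10, RNF43, FCGBP and LGALS9. LGALS4 exceeded the floor on 1 of these SNU-216 arrays, at 33.2. CEACAM1, CA2, TSPAN8 and AGR2, likewise measured on every array of the other lines, were above the floor on the SNU-216 CD133+ arrays, at means of 88.0, 133, 149 and 157. Genes of both kinds were picked after their values were seen, and neither set is complete. The source of these signals was not tested. CEACAM genes share sequence, and the probes behind each row are not given, so hybridization of 1 transcript to the probe of another cannot be told apart from its own signal.

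Of 10 other CEACAM genes, 2 exceeded the floor on 2 or more arrays. CEACAM1, the founding adhesion receptor of the family, was likewise high in KATO-III and SNU-601, with 4320 ± 162 and 4351 ± 29.1 (SD, n = 2 each) in CD133+ and CD133- cells of KATO-III and 6056 ± 188 and 7127 ± 277 in SNU-601. In SNU-216 it read 88.0 ± 7.53 in CD133+ cells and was at the floor in CD133- cells, at least 2.69-fold apart (log2 1.43, adjusted p = 2.83e-06). In SNU-601 it was lower in CD133+ cells (log2 -0.23, adjusted p = 0.0380). CEACAM21 was called in no line.

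GUCY2C encodes guanylyl cyclase C, the apical receptor of the peptide hormones guanylin and uroguanylin and of heat-stable bacterial enterotoxins. It was measured only in KATO-III CD133- cells, at 127 and 120. KATO-III CD133+ cells gave -27.9 and -9.79, and the 8 arrays of the other lines lay between -39.6 and 9.89. The CD133- fraction of KATO-III was at least 3.78-fold above CD133+ cells (log2 -1.92 with the floor). Since the gene was above the floor only on these 2 arrays, it passed the filter on dim genes only through the population where it was high, and its calls are given as a description. Of 8 other genes of the guanylyl cyclase C pathway (its ligands, kinases, the chloride channel CFTR and phosphodiesterase 5A), 4 were tested. PDE5A was higher in CD133+ cells of KATO-III (0.45, adjusted p = 0.0235) and lower in those of SNU-216 (-0.44, adjusted p = 0.0317), and ABCC4, a cyclic nucleotide exporter, was lower in CD133+ cells of SNU-216 and SNU-601 (-0.39 and -0.77).

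REG4 encodes a secreted lectin of goblet and enteroendocrine cells that is frequent in metaplasia and in gastric cancer. It spanned the widest range of the members on the floored log2 scale, with 11665 and 12075 in SNU-601 CD133+ cells and 16587 and 15950 in CD133- cells. KATO-III gave 112 and 103 in CD133+ cells against 1477 and 1518 in CD133- cells, and SNU-216 lay between -24.4 and -18.9. No fractions overlapped where the gene was measured. CD133+ cells of KATO-III were 14.0-fold lower (log2 -3.81, SE 0.0597, adjusted p = 9.95e-09), the 4th lowest change of 20147. In SNU-601 they were 1.37-fold lower (-0.45, adjusted p = 0.00156). The KATO-III change minus the SNU-601 change was -3.35 (SE 0.0845, adjusted p = 1.92e-07). SNU-601 was 34.7-fold above KATO-III and at least 425-fold above SNU-216, and each of the 4 populations of these lines differed from its neighbors in the order. CDH17 and REG4 were the members called lower in CD133+ cells of both KATO-III and SNU-601, a state shared with 3.05% of all tested genes.

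REG1A, the regenerating protein of pancreas and metaplastic stomach, was like REG4 highest in SNU-601, with 3660 ± 232 in CD133+ and 4065 ± 90.2 in CD133- cells. It read 44.2 ± 13.1 and 32.5 ± 20.2 in KATO-III and was at the floor in SNU-216. Of 5 other REG genes, REG1A and REG3A were tested, and neither passed between the fractions of any line. Of 10 other galectins, 8 were tested. In CD133+ cells of KATO-III 1 was higher and 3 were lower, beside 18.7% and 20.6% of all tested genes. LGALS2 was among the lower (-1.20, limma adjusted p = 0.0241). LGALS1 and LGALS9 moved in opposite directions. LGALS1, a galectin of mesenchymal and tumor cells, was -1.20 in KATO-III and 0.40 in SNU-601, and LGALS9 was 1.02 and -0.49 (adjusted p = 1.63e-05, 0.0188, 7.68e-05 and 0.0131). Of 8 other fatty acid-binding proteins, 4 were tested. FABP5, the epidermal form, was higher in CD133+ cells of SNU-216 (0.86, adjusted p = 0.000148) and lower in those of SNU-601 (-0.85, adjusted p = 0.000599). FABP4, at intensities of at most 96.2, was lower in CD133+ cells of KATO-III and SNU-601 (-0.60 and -0.58, limma adjusted p = 0.00344 and 0.0109). FABP6 was lower in those of KATO-III (-0.44, limma adjusted p = 0.0215).

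A list of 48 further brush border and enterocyte genes had 24 genes that passed the filter on dim genes. In KATO-III 3 were higher and 9 lower in CD133+ cells, of 22 above the floor there, with a median of -0.33. In SNU-601 2 were higher and 6 lower of 21, with a median of -0.23, and in SNU-216 4 were higher and 1 lower of 15, with a median of 0.01. Of all tested genes, 18.7% were called higher and 20.6% lower in KATO-III. The shares were 8.59% higher and 7.78% lower in SNU-601, and 14.6% higher and 14% lower in SNU-216. VILL (villin-like protein), GPA33 (an intestinal surface antigen) and ANXA13 (an annexin of the apical membrane) were lower in CD133+ cells of both KATO-III and SNU-601. No gene of the list was called higher in both lines. The genes called higher were EPS8 (1.72), CA2 (0.62) and PLS1 (0.42) in KATO-III, and ESPN (1.02) and DGAT1 (0.22) in SNU-601. ANXA13 read 217 ± 9.43 in KATO-III CD133- cells and was at the floor in CD133+ cells, a difference of at least 6.62-fold (adjusted p = 1.48e-06). In SNU-601 it read 42.4 ± 5.81 against 220 ± 10.1, a log2 difference of -2.38 (adjusted p = 5.46e-05).

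Among genes called in SNU-216, several were higher in CD133+ cells at a low level, as CEACAM6 was. CA2, carbonic anhydrase 2, read 133 ± 31.1 in CD133+ cells and was at the floor in CD133- cells, at least 4.02-fold apart (adjusted p = 1.23e-05). TSPAN8, a tetraspanin of gut epithelium, read 149 ± 8.11 against 52.9 ± 6.49 (log2 1.50, adjusted p = 7.69e-06). From the secretory genes below, AGR2, a disulfide isomerase of mucous cells, read 157 ± 39.6 against 32.6 ± 8.02 (2.12, adjusted p = 1.81e-05). All of these levels are far below those of the same genes in KATO-III and SNU-601, where TSPAN8 read between 13767 and 16575 on average.

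**Figure D3:**
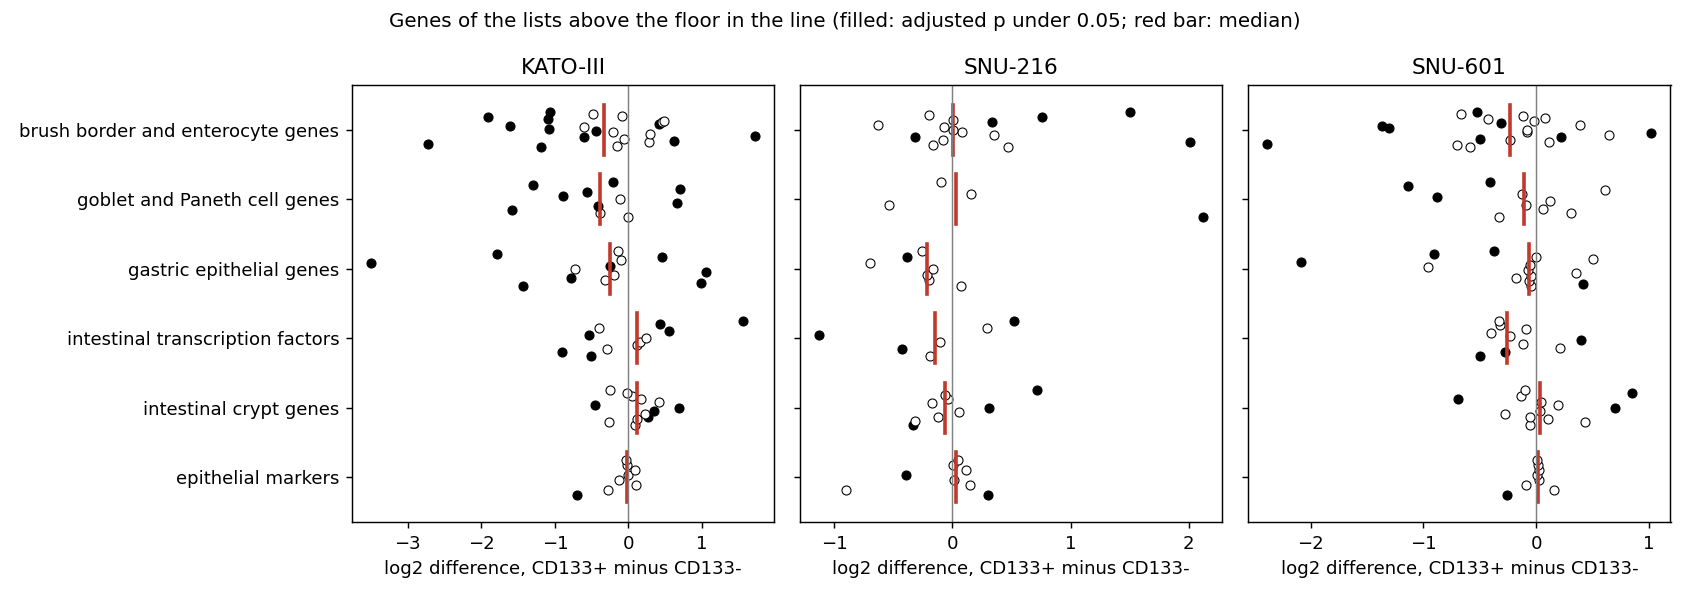
Log2 difference, CD133+ minus CD133-, of each tested gene of 6 lists that lay above the floor in the line, with filled points for an adjusted p under 0.05 and a red bar at the median; the x axes differ in range. In KATO-III the brush border list (median -0.33) has 9 genes called lower and 3 higher, and the 8 epithelial markers center on -0.03. Of all tested genes, 20.6% were called lower and 18.7% higher there.

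Of 14 goblet and Paneth cell genes in the table, 11 were tested, with 2 higher and 6 lower in KATO-III CD133+ cells, 0 higher and 3 lower in SNU-601 and 1 higher in SNU-216. TFF3, the intestinal trefoil peptide, was lower in CD133+ cells of KATO-III and SNU-601 (-0.22 and -0.41), as were SPINK4 (-1.30 and -1.13) and PLA2G2A (-0.88 in each). LYZ, lysozyme, was higher in KATO-III CD133+ cells (0.66, adjusted p = 1.98e-05). Gastric genes included some of the largest differences. Of 14 tested gastric epithelial genes, 3 were higher and 5 lower in KATO-III, 1 higher and 3 lower in SNU-601, and 1 lower in SNU-216. Of all tested genes, 39.3% were called in either direction in KATO-III, 16.4% in SNU-601 and 28.6% in SNU-216. MUC5AC, the mucin of the gastric surface, read 193 ± 35.6 in KATO-III CD133+ cells and 2176 ± 233 in CD133- cells (-3.50, adjusted p = 1.16e-05) and 1707 ± 83.1 against 7265 ± 865 in SNU-601 (-2.08, adjusted p = 0.00107). TFF1, the gastric trefoil peptide, was lower in CD133+ cells of the same lines (-1.79 and -0.90). Other genes of the gastric list went the other way. AQP5 was higher in CD133+ cells of KATO-III and SNU-601 (0.99 and 0.42), and GAST (1.05) and SOX2 (0.46) were higher in those of KATO-III.

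CDX2 was likewise high in KATO-III and SNU-601 and low in SNU-216. It read 1265 ± 58.8 and 1791 ± 46.6 in CD133+ and CD133- cells of KATO-III, 2120 ± 182 and 2995 ± 244 in SNU-601, and 21.9 ± 18.8 and 38.9 ± 4.20 in SNU-216, at or near the floor. It was lower in CD133+ cells of KATO-III and SNU-601 (-0.50 in each, adjusted p = 0.00370 and 0.0106). Of 14 intestinal transcription factors 11 were tested, with 3 higher and 3 lower in KATO-III, 1 and 2 in SNU-601 and 1 and 2 in SNU-216. ELF3, an epithelial ETS factor, was lower in CD133+ cells in all 3 lines (-0.91, -0.42 and -0.28) and passed over the lines (-0.54, adjusted p = 0.0157). HES1, a Notch target, was lower in SNU-216 (-1.13) and higher in SNU-601 (0.40). The crypt list was mixed: of 14 tested, KATO-III had 3 higher and 1 lower in its CD133+ fraction, and SNU-216 and SNU-601 each had 2 higher and 1 lower, with medians of 0.11, -0.07 and 0.04. Beside the counts of both lists, 39.3%, 28.6% and 16.4% of all tested genes were called in KATO-III, SNU-216 and SNU-601. LGR5, the receptor that marks crypt stem cells, was higher in CD133+ cells of KATO-III (0.68, adjusted p = 0.000873) and SNU-601 (0.70, adjusted p = 0.00287), at mean intensities of at most 196. The genes called lower were MEX3A in KATO-III (-0.45), ASCL2, a transcription factor of crypt stem cells, in SNU-216 (-0.34) and RNF43, a membrane ligase that limits Wnt signaling, in SNU-601 (-0.69).

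**Figure D4:**
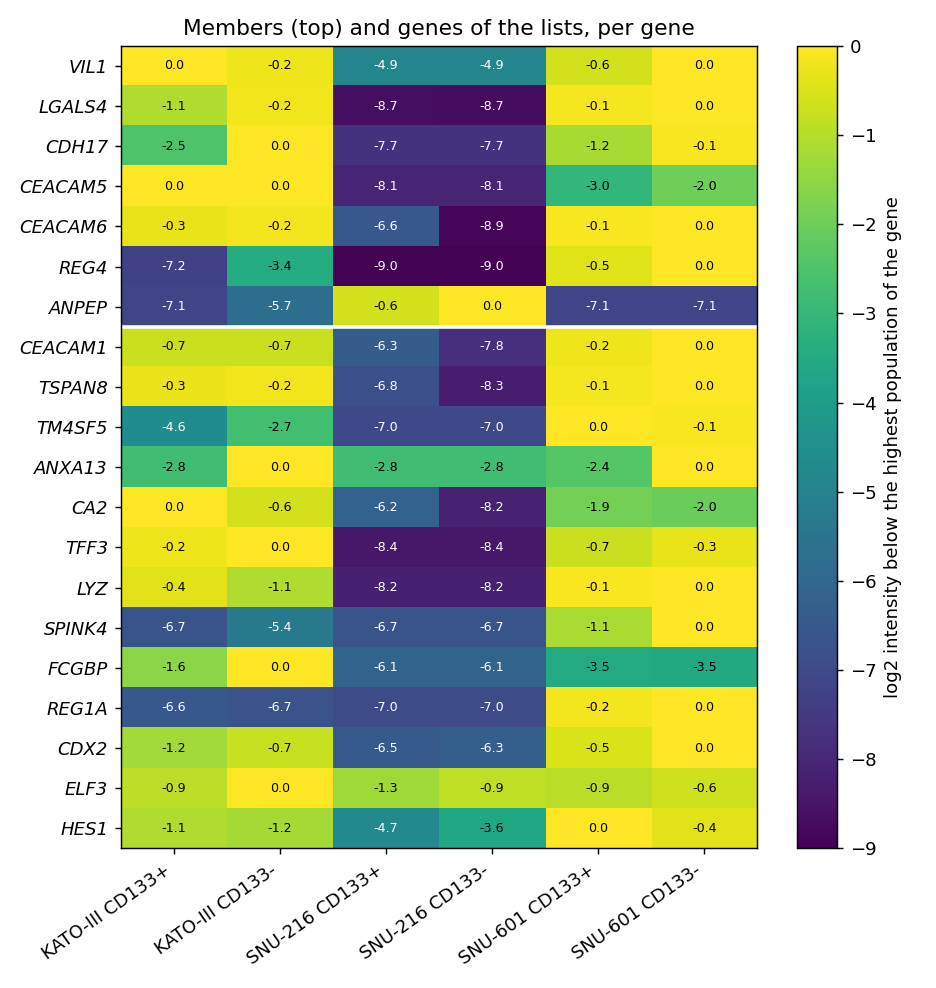
Mean log2 intensity of each population below that of the gene's own highest population, for 7 members (above the white line) and 13 genes of the lists; 0.0 is the highest population of each row. SNU-216 lies at -4.88 to -8.96 for VIL1, LGALS4, CDH17, CEACAM5 and REG4 in both fractions, at -6.55 for CEACAM6 in CD133+ cells, and at 0.0 for ANPEP in CD133- cells.

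The likeness of profiles over the 12 arrays is given as a description, since arrays share lines. Across the 7 members above the floor on at least 6 arrays, the log2 intensities of LGALS4 and VIL1 were the most alike (Pearson r = 0.989, n = 12 arrays), and ANPEP was negatively correlated with each other member (from -0.982 with VIL1 to -0.778 with REG4). The tested gene most like VIL1 was GDF15 (r = 0.999), that most like LGALS4 was C9ORF152 (1.00), that most like CDH17 was PTPRH (0.999), and that most like CEACAM5 was RAPGEF5 (0.997). TSPAN8 was most like CEACAM6 (0.998), MGAT3 most like REG4 (0.999) and FBXO32 most like ANPEP (0.999).

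Sums of leukocyte and fibroblast markers are given as the range over the 2 arrays of each fraction, and each sum rests on few genes. Of all tested genes, 39.3% were called between the fractions of KATO-III, 28.6% in SNU-216 and 16.4% in SNU-601. The summed intensity of 10 leukocyte markers was 910 to 984 in CD133+ and 1351 to 1361 in CD133- cells of KATO-III, 314 to 316 against 513 to 605 in SNU-216, and 1203 to 1341 against 1712 to 1723 in SNU-601. CD14 made up most of the sum in KATO-III, with 846 ± 14.7 in CD133+ and 1222 ± 28.6 in CD133- cells (-0.53, limma adjusted p = 0.00609). It was at or near the floor in the other lines. CD68, a lysosomal protein of macrophages that other cells also make, was lower in CD133+ cells in all lines (-1.36, -1.13 and -0.46), and PTPRC was at the floor on all 12 arrays. CD68 made up most of the sum in SNU-216 and in SNU-601, where it read 1148 ± 103 in CD133+ and 1576 ± 70.2 in CD133- cells. The sum of 8 fibroblast markers was 119 to 172 against 777 to 832 in KATO-III, 99.7 to 103 against 33.1 to 44.4 in SNU-216, and 153 to 201 against 139 to 196 in SNU-601. LUM, the proteoglycan lumican, read 78.0 ± 19.3 against 763 ± 27.7 in KATO-III (-3.31, adjusted p = 1.73e-06), while COL1A1, a fibrillar collagen chain, was higher in CD133+ cells there (59.2 ± 11.2, with CD133- cells at the floor, at least 1.80-fold, adjusted p = 0.00977). COL3A1, DCN, PDGFRB, FAP and THY1 were at the floor on all arrays, and no fibroblast marker passed it on both SNU-216 CD133- arrays. The part of these markers in the differences of the members was not tested.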

How the data were processed

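Total RNA of sorted cells was amplified, labeled with biotin and hybridized to Human HT-12 v3 BeadChips. The authors deposited quantile-normalized intensity values with a row per gene symbol, made with BeadStudio per the submitters' processing notes, and the version, the background step and the way probes were combined are not given in the sources used here. Of all values 32.1% are at or below 0, on a linear scale from -56.4 to 23393.5. Of 34688 rows, 93 are empty. Intensities under the floor (32.7) were set to it and log2 was taken, and the test took the 20147 genes with 2 or more arrays above it. The number of arrays limits the precision.

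Groups were taken from the array labels. limma 3.58.1 in R 4.3.3 was fitted to all 12 arrays with a mean per population and a mean-variance trend (6 residual degrees of freedom), and to the fractions over lines with line as a block (8). p-values were adjusted by Benjamini and Hochberg, and called means an adjusted p under 0.05. The members, lists and tests were chosen with earlier results of these data known. Genes named beside the members are, of each list, up to 3 with the largest called change and up to 2 with the largest range of line means, and the 3 genes most like a member. VILL, GPA33, EPS8, PLS1, ESPN, DGAT1, PLA2G2A, AQP5, GAST, SOX2, MEX3A and ASCL2 are outside this rule. They were named after their values were seen, as were the marker genes listed at the floor. Alternatives covered the floor, an offset, the normalization, the filter on dim genes, the trend, the replicate number as a block, averaging or blocking the arrays of a population, single fractions, and omission of 1 array at a time. The fit with a mean per population and the fit over lines were first tested on simulated data. The simulation used genes above the floor on all 12 arrays, so it did not cover genes at the floor or the alternatives. Promoters came from RefSeq tables (GRCh38.p14), which held 7 of the 10 members, and windows were aligned with Biopython 1.88. Figures were drawn with matplotlib 3.10.9.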

Additional observations from a re-analysis of the deposited data

Results flagged for a closer look

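For all 8 tested members, the change between CD133+ and CD133- cells differed between the 3 lines by a moderated F-test of the interaction in limma, where 44.4% of all tested genes passed. The adjusted p was 1.39e-07 for REG4, whose change was -3.81 in KATO-III and -0.45 in SNU-601, and 1.26e-06 for CEACAM6, at 2.33 in SNU-216 and -0.12 and -0.09 in KATO-III and SNU-601. It was 8.76e-06 for CDH17 (-2.49 in KATO-III, -1.10 in SNU-601) and 1.92e-05 for GUCY2C, which lay above the floor in KATO-III CD133- cells alone and passed the filter on dim genes only through them. Without GUCY2C, 7 of 7 members passed. For ANPEP it was 0.000214, with -1.37 in KATO-III and -0.63 in SNU-216. For LGALS4 it was 0.000242, with -0.85 in KATO-III and -0.11 in SNU-601, and this call was lost with a floor of 16 (adjusted p = 0.0800). For CEACAM5 it was 0.000521, with -0.03 in KATO-III and -1.05 in SNU-601. For VIL1 it was 0.000950, and this member had opposite signs in KATO-III (0.23) and SNU-601 (-0.59), every array of one fraction lying on the same side of the other in each line. A line with both fractions at the floor enters these tests with a change of 0, which is the case in SNU-216 for VIL1, CDH17, CEACAM5, GUCY2C and REG4 and in SNU-601 for ANPEP and GUCY2C.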

How the results depend on the processing

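Of 1201 values of the members under other settings, 1170 kept their direction and their side of the threshold, 23 lost and 4 gained a call, and 4 changed sign. CEACAM5 within KATO-III became 0.0146 with arrays centered on their medians, VIL1 and CDH17 between KATO-III and SNU-601 became -0.22 and 0.0898 in CD133- arrays alone, and CEACAM6 over the lines became -0.10 in KATO-III and SNU-601 alone, a setting chosen after seeing the data. Over the lines, where 0 members passed, 1 (CDH17) passed with a floor of 100, 1 with an offset of 100 in place of the floor (adjusted p = 0.0439 and 0.0294) and 1 in KATO-III and SNU-601 alone. With the arrays of a population averaged first, or with the population as a random block, 0 passed. Across the settings the limma adjusted p of CDH17 over the lines ran from 0.0105 to 0.796. Between KATO-III and SNU-601 the count fell from 8 to 5 in CD133+ arrays alone and to 2 when the arrays of a population were averaged first, which leaves fewer residual degrees of freedom. Leaving out each array in turn gave 4 to 6 members in KATO-III, 2 in SNU-216, 4 in SNU-601, 7 to 8 for the interaction, 7 to 8 between KATO-III and either other line, 7 between SNU-216 and SNU-601, 0 over the lines and 19 to 21 neighbors called apart in the order of populations (21 with all arrays). The count of 4 came without either KATO-III CD133- array, where VIL1 lost its call and GUCY2C, above the floor on 1 array only, was not tested. VIL1 in KATO-III also lost its call with a floor of 16 (adjusted p = 0.0793) and with the offset (0.0751). Replicate numbers did not pair the arrays (correlations of -0.0116 to 0.0276 over 15 pairs of populations). With the replicate number as a block, VIL1 in KATO-III lost its call (adjusted p = 0.0544), which left 5 members there, and the counts were 2 in SNU-216, 4 in SNU-601, 8 for the interaction and 0 over the lines. No member lay above the floor on all 12 arrays, so that stricter filter gave no value. Levels near the floor, such as GUCY2C in KATO-III and CEACAM6 in SNU-216, are limited by the background, and their fold changes are bounds that move with the floor.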
